A study of Brassica rapa with 8 samples.

Results

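Transcript levels were described for 5 gene models of *B. rapa* taken as homologues of the flowering integrators FT (Bra022475 and Bra004117) and SOC1 (Bra004928, Bra000393 and Bra039324), out of 38200 gene models in the deposited table. The members were found by these identifiers. The table gives identifiers and no gene names, so which Arabidopsis gene each one resembles rests on the given list and was not checked by sequence. All samples were of the Chinese cabbage accession Chiifu-401-42, with no mutant or treatment. Root (2 samples), leaf (2 samples) and stem (1 sample) were from plants 7 weeks old. Flower (1 sample) was taken at blooming, without the floral shoot per the study's methods, silique (1 sample) was taken 15 days after pollination, and callus (1 sample) came from tissue culture. Per the sample labels, plants stood in a greenhouse at 15 to 25°C and callus was kept at 25°C. The study's methods instead give a single greenhouse temperature, which lies within that range. Day length, hour of harvest and any cold treatment were not given in the sources used here. Both root samples and both leaf samples came from different batches of plants per the study's methods, so batch is part of their spread. Stem, flower, silique and callus were not replicated.

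In Arabidopsis, FT is a small protein of the phosphatidylethanolamine-binding family that is made in the phloem companion cells of leaves, moves to the shoot apex and there acts with the transcription factor FD to start flowering. It is induced by CONSTANS in long days and repressed by the MADS-box protein FLC until cold has silenced FLC. SOC1 is itself a MADS-box transcription factor. It collects signals from day length, cold, gibberellin and age, is repressed by FLC, and acts upstream of LEAFY at the apex. *Brassica* genomes descend from an ancestral triplication, and many single genes of Arabidopsis have several copies in *B. rapa*.

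Levels are given as FPKM, fragments scaled for transcript length and for the fragments mapped in the library, with the deposited 95% interval in parentheses. Expression in a sample was called where the lower bound of that interval was above 0, and tissue values of root and leaf are means of their samples. The number of fragments behind each value was derived from the width of its interval. Where FPKM is 0 the deposited interval has no width, so the FPKM of 3 fragments was taken as the limit that a count of 0 allows. Intervals and limits cover counting error only. Implied fragments ranged from 7933672 (silique) to 16417289 (root 1), and genes expressed from 24593 (leaf 2) to 28122 (root 1). The 4 genes with the highest FPKM held from 0.837% (root 1) to 9.58% (callus) of the fragments, and a gene that takes a large share lowers the FPKM of the others. In tissue of many cell types, fewer cells of a type and less RNA per cell cannot be told apart.

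All 5 genes were of modest level. Their highest tissue values were 4.37 (Bra022475), 11.5 (Bra004117), 8.81 (Bra004928), 4.44 (Bra000393) and 8.40 FPKM (Bra039324), against a median highest tissue value of 14.2 FPKM over the 33082 genes expressed in at least 1 sample. Of those genes, between 24.9% (Bra022475) and 44.5% (Bra004117) had a lower highest value. Of the 40 member values, 12 were 0, 19 met the rule for expression, and 9 were above 0 without meeting it. None of the 5 genes was expressed in every sample, whereas 59.0% of all expressed genes were. The highest tissue value lay in flower for 4 of 5 genes, against 14.5% of all expressed genes, and in leaf for Bra039324, against 10.2%. For the SOC1 homologues that place was not separated from root. Intervals of flower overlapped those of root 2 for Bra004928 and of both root samples for Bra000393, and leaf overlapped root for Bra039324. In neither leaf sample was Bra022475, Bra004117 or Bra000393 expressed, 3 of 5 genes against 20.4% of all.

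Both FT homologues were measured almost entirely in flower, and neither gave a fragment in leaf. Bra004117 (Scaffold000003, 5482337 to 5484761, positions as the table gives them, with no build named) had 11.5 FPKM in flower (8.92 to 14.1), from 79 fragments. It had 1.23 in silique (0.300 to 2.16; 7 fragments), 0.156 in callus and 0.0972 in root 1 (1 fragment each), and 0 in root 2, leaf 1, leaf 2 and stem. Flower stood above every other sample with no overlap of intervals, and silique was the only other sample in which the gene was expressed. The ratio of flower to silique was 9.36, with an exact 95% interval of 4.34 to 24.0 from the fragment numbers.

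Bra022475 (Scaffold000038, 48936 to 51427) had 4.37 FPKM in flower (2.78 to 5.97; 30 fragments). Its other values were 0.527 in silique (0 to 1.14; 3 fragments) and 0.185 in stem (1 fragment), and it was at 0 in root 1, root 2, leaf 1, leaf 2 and callus. Flower was thus the single sample in which this copy was expressed, and its interval lay above those of all other samples. The ratio of flower to silique was 8.30 (2.58 to 42.5). A count of 0 allowed up to 0.292 FPKM in leaf 1 and 0.441 in leaf 2 for either FT copy, and up to 0.437 in root 2. Levels in leaf below those limits are not excluded by the counts.

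**Figure D1:**
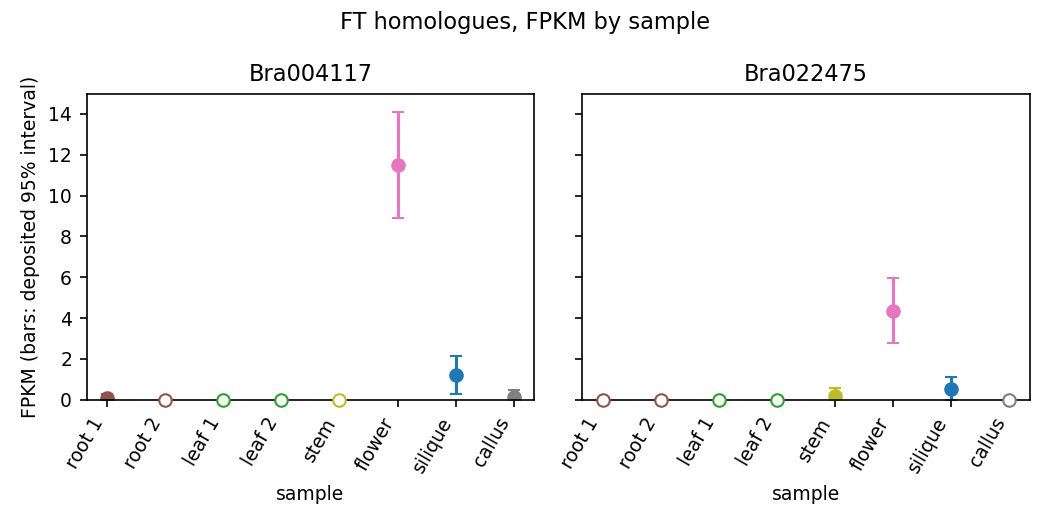
FPKM (linear axis) of the FT homologues Bra004117 and Bra022475 in each of 8 samples, with bars for the deposited 95% interval and open points for values of 0. Flower reaches 11.5 and 4.37 FPKM and every other sample lies at or below 1.23.

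Within flower, Bra004117 was 2.63 times Bra022475 (1.71 to 4.15), and their intervals were apart. Of the summed FT signal in flower (15.9 FPKM), Bra004117 gave 72.5% (exact binomial interval 63.1% to 80.6%; 79 of 109 fragments). In silique it gave 70.0%, but 10 fragments in all leave that share between 34.8% and 93.3%. The other samples held at most 1 fragment of either copy. Over 6 tissues the difference of Bra004117 minus Bra022475 in log2(FPKM + 1) was 0.30 ± 0.52 (SD), higher in 4 of 6 tissues. In root and callus it was higher by 1 fragment. A two-sided exact sign-flip permutation test over 4 pairs of copies gave an adjusted p of 0.333 (raw p 0.25). The smallest p that 6 tissues allow is 0.03125 by this test. For the FT pair it is larger and above 0.05, because both copies were at 0 in leaf. The test could thus not pass for this pair and decides nothing across tissues. The higher level of Bra004117 was resolved in flower by counting error.

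The index of tissue specificity T runs from 0 for equal levels in all 6 tissues to 1 for a gene measured in a single tissue. T was 0.967 for Bra022475 and 0.975 for Bra004117, the 2 of 5 genes at or above 0.9, where 19.3% of all expressed genes lay. Both were also at least 4-fold higher in flower than in every other tissue, as were 4.37% of all expressed genes. In flower, Bra004117 stood above 62.1% and Bra022475 above 36.1% of the genes expressed there.

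The SOC1 homologues were read in more tissues, and the copies differed in where. Bra004928 and Bra000393 were highest in flower and root, whereas Bra039324 was high in root, leaf and stem and low in flower.

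Bra004928 (Scaffold000004, 2530304 to 2532747) was the most widely detected, expressed in 7 of 8 samples. The root samples had 3.88 (root 1, 2.76 to 4.99) and 8.87 FPKM (root 2, 6.80 to 10.9), and the leaf samples 1.76 (leaf 1, 1.01 to 2.51) and 3.02 FPKM (leaf 2, 1.81 to 4.23). Flower had 8.81 (6.75 to 10.9), silique 0.867 (0.159 to 1.57), callus 0.641 (0.0676 to 1.21) and stem 0.456 (0 to 0.983; 3 fragments). Flower and root 2 were the high samples and overlapped, root 1 and the leaves were between, and stem, silique and callus were low. Flower was 19.3 times stem (6.31 to 95.1). The order of tissues was flower, root, leaf, silique, callus, stem, but no neighbours in it had intervals apart. Flower was 1.38 times the mean of root (6.37 ± 3.53, SD, n = 2), and this ratio was 2.27 with root 1 alone and 0.994 with root 2 alone, so the order of flower and root rests on 1 root library.

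The root samples of Bra004928 disagreed beyond counting error. Root 2 was higher than root 1 by 1.02 in log2(FPKM + 1), whereas the median gene was lower in root 2 (-0.25), and 3.38% of 23400 genes differed at least as much. Intervals of root 1 and root 2 were apart for 37.6% of all genes expressed in either, and for 1 of the 3 SOC1 copies. Leaf 2 was also above leaf 1, by 0.54, with overlapping intervals. Intervals of leaf 1 and leaf 2 were apart for 39.6% of all genes expressed in either, and for 0 of the 2 members expressed there (Bra004928 and Bra039324). The root samples came from different batches of plants, so batch and sample cannot be told apart here.

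Bra000393 (Scaffold000001, 2126985 to 2129413) was the lowest of the SOC1 copies over root and leaf, and it was detected in fewer samples. It had 4.44 FPKM in flower (2.98 to 5.89), 2.72 in root 1 (1.79 to 3.65) and 2.04 in root 2 (1.05 to 3.02). Stem (0.608, 0 to 1.22; 4 fragments) and silique (0.289, 0 to 0.698; 2 fragments) were above 0 without meeting the rule for expression. Leaf 1, leaf 2 and callus were at 0, which allows up to 0.240, 0.363 and 0.384 FPKM. By the rule for expression the samples fell into flower and root, which were expressed, and the rest, which were not. The deposited intervals of root 2 and stem overlapped, although root 2 was 3.35 times stem by fragment numbers (1.09 to 13.7). Flower was 1.63 times root 1 (0.997 to 2.68) and 2.18 times root 2 (1.20 to 4.12), and the deposited intervals of flower and both root samples overlapped. T was 0.852, and 25.8% of expressed genes were at or above it.

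Bra039324 (Scaffold000163, 267027 to 270021) had the opposite balance of flower and vegetative organs. The root samples had 8.51 (root 1, 6.86 to 10.2) and 6.83 FPKM (root 2, 5.02 to 8.64), the leaf samples 7.85 (leaf 1, 6.26 to 9.44) and 8.95 FPKM (leaf 2, 6.87 to 11.0), and stem 5.17 FPKM (3.40 to 6.94). Flower had 1.02 (0.320 to 1.72), silique 0.578 (0 to 1.16; 4 fragments) and callus 0.384 (0 to 0.828; 3 fragments). Every root, leaf and stem sample lay above flower, silique and callus with no overlap, and within each of these sets the deposited intervals overlapped. By the ratio intervals from fragment numbers, root 1 was 1.65 times stem (1.10 to 2.49) and leaf 1 1.52 times (1.02 to 2.31). Leaf 2 was 1.73 times stem (1.14 to 2.68), and root 2 was not separated from it (1.32, 0.849 to 2.08). Stem was 5.08 times flower (2.45 to 13.5), the one step in the order of tissues (leaf, root, stem, flower, silique, callus) at which neighbours were apart. T was 0.647, below the median of 0.679 over all expressed genes, and that of Bra004928 was 0.756.

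**Figure D2:**
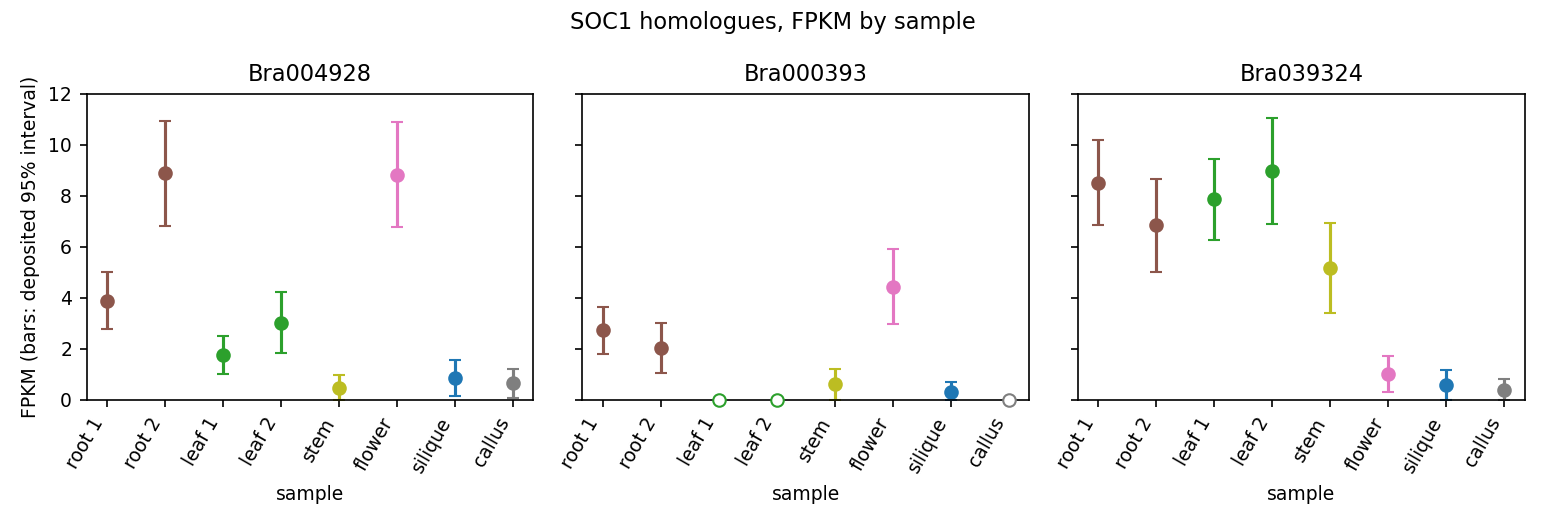
FPKM (linear axis) of the SOC1 homologues in each of 8 samples, with bars for the deposited 95% interval and open points for values of 0. Bra004928 and Bra000393 peak in flower and root, and Bra039324 lies between 5.17 and 8.95 FPKM in root, leaf and stem and at 1.02 in flower.

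Within libraries, the SOC1 copy with the highest level changed from organ to organ. In flower Bra039324 was 0.116 times Bra004928 (0.0456 to 0.228), and in stem it was 11.3 times Bra004928 (3.56 to 57.7). It was above Bra004928 with intervals apart in root 1, leaf 1, leaf 2 and stem, below it in flower, and not separated from it in root 2, silique and callus. Against Bra000393 it was higher in all root, leaf and stem samples and lower in flower. Bra004928 was above Bra000393 with intervals apart in root 2, leaf 1, leaf 2 and flower (1.99 times in flower, 1.31 to 3.01). In silique and callus, with 12 and 8 fragments over the copies, no pair was apart.

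Bra039324 made up 81.7% of the summed SOC1 signal in leaf 1 (73.6% to 88.1%), 74.7% in leaf 2 (65.0% to 82.9%) and 82.9% in stem (67.9% to 92.8%). In flower its share was 7.14% (2.95% to 12.8%), where Bra004928 had 61.8% (52.0% to 70.1%) and Bra000393 31.1% (22.9% to 40.2%). The share of Bra039324 in flower thus lay below its shares in leaf and stem with no overlap of intervals, whereas the intervals of Bra000393 in stem (2.72% to 23.1%) and flower overlapped. Root was mixed and its samples differed: Bra004928 gave 25.7% in root 1 (19.4% to 32.2%) and 50.0% in root 2 (41.7% to 58.3%), while Bra039324 gave 56.3% and 38.5%. The sum of the SOC1 copies was 15.1 and 17.7 FPKM in root 1 and root 2, 9.61 and 11.98 in leaf 1 and leaf 2, and 6.24 in stem. Flower had 14.3, against 1.73 in silique and 1.03 in callus. Flower and root thus held similar sums in different proportions, with Bra004928 leading in flower and root 2 and Bra039324 in root 1. Silique and callus held little of any copy.

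**Figure D3:**
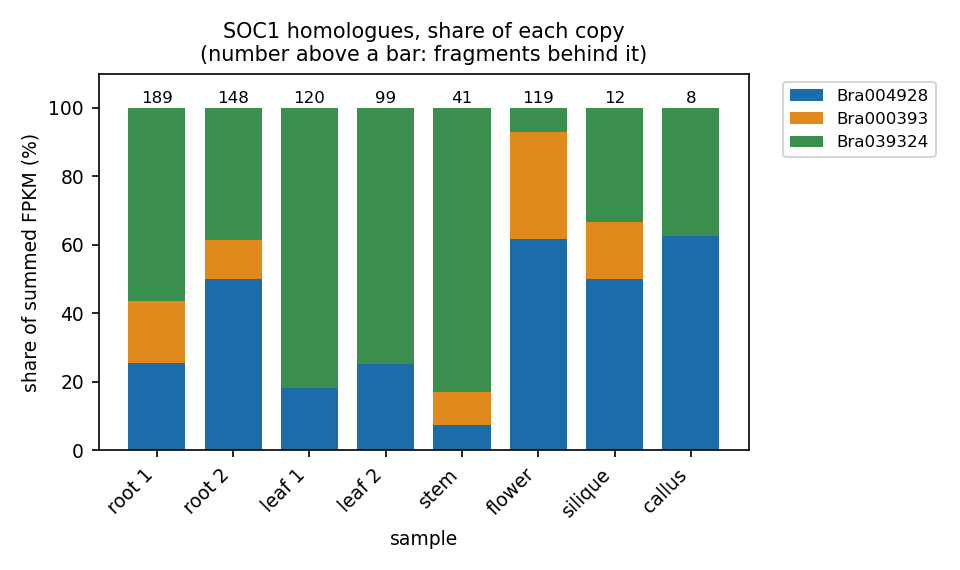
Share (%) of each SOC1 homologue in the summed FPKM of the 3 copies, by sample, with the fragments behind each bar printed above it. Bra039324 makes up 74.7% to 82.9% in leaf and stem and 7.14% in flower.

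No SOC1 pair differed consistently over tissues by the same exact sign-flip permutation test. Bra004928 exceeded Bra000393 by 0.81 ± 0.63 in log2(FPKM + 1), in 5 of 6 tissues (adjusted p = 0.25, exact). The difference of Bra039324 minus Bra000393 was 0.98 ± 1.59, in 5 of 6 tissues (adjusted p = 0.333, exact). That of Bra039324 minus Bra004928 was 0.17 ± 1.53, in 3 of 6 tissues (adjusted p = 0.938, exact). In the pairs with Bra039324 the SD exceeded the mean. Bra039324 was below Bra004928 in flower, silique and callus, and below Bra000393 in flower. With 6 tissues and 4 pairs these tests have little power, and a p above the threshold does not show equal levels.

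Leaf and root are the only tissues with replicates, and were compared by limma with Benjamini-Hochberg adjustment over 25725 genes. At an adjusted p under 0.05, 16.3% of genes were higher in leaf and 34.6% higher in root, and the median difference of leaf minus root was -0.47 in log2(FPKM + 1) (-0.33 with samples scaled to the same upper quartile). Of the 3 SOC1 copies tested, 1 passed as higher in root and 0 as higher in leaf. Bra000393, with 0 in both leaf samples against 2.72 and 2.04 FPKM in root, differed by -1.75 (SE 0.18, adjusted p = 0.000299). It entered the test only through root, so some difference was built in by the filter. Its leaf values of 0 also had no spread, which lowers its SE. The p of Bra000393 is thus no independent support for the difference. The FT copies were too low in leaf and root to be tested.

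Bra004928 was lower in both leaf samples (1.76 and 3.02 FPKM) than in both root samples (3.88 and 8.87), with no overlap of the sample values. The difference was -1.06 (SE 0.40, 95% interval -2.002 to -0.11), and it missed the threshold after adjustment by limma (adjusted p = 0.0627). Leaving out 1 sample moved the difference between -0.55 (without root 2) and -1.57 (without root 1), so its size depends on single libraries. A fit with 1 sample in a tissue gives no p comparable to that of the full fit, so none is given. Bra039324 had overlapping leaf and root values and a difference of 0.12 (SE 0.26, interval -0.50 to 0.74; adjusted p = 0.719 by limma). That interval includes the median of all genes (-0.47), and it also did so with a pseudocount of 0.1 and with no filter. With upper-quartile scaling the interval was -0.257 to 0.788, above the median of -0.33. With the replicate number as a block, which no source gives as a batch, it was -0.225 to 0.468, above -0.47. Whether Bra039324 stands apart from the general shift to root thus depends on the setting.

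**Figure D4:**
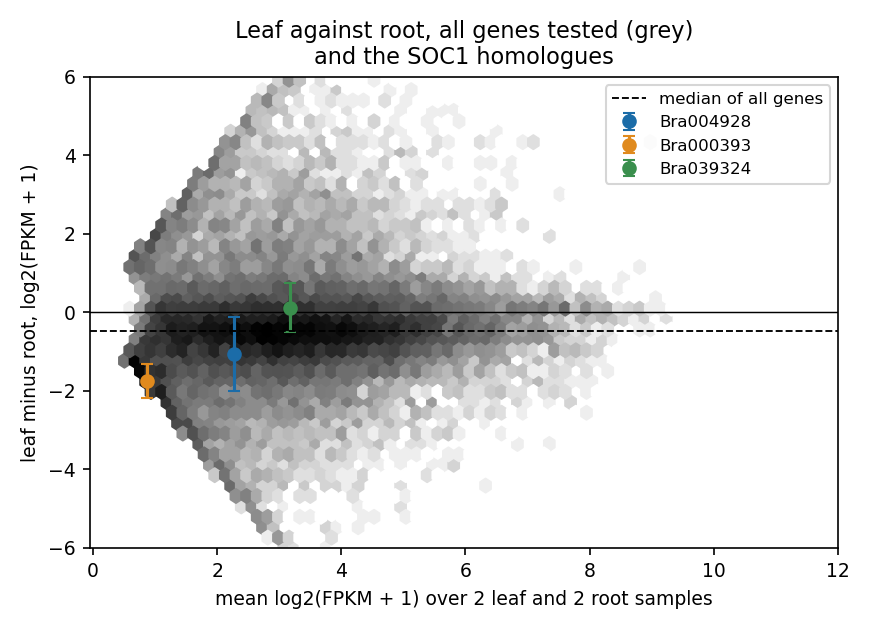
Difference of leaf minus root in log2(FPKM + 1) against the mean level over the 4 samples, with the density of all 25725 genes tested in grey (darker for more genes, axis limited to 6 in either direction) and the SOC1 homologues as points with the 95% interval of limma. Bra000393 lies at -1.75, Bra004928 at -1.06 and Bra039324 at 0.12, against a median of -0.47 (dashed line).

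Across the 6 tissue values of log2(FPKM + 1), which share libraries and depth, Pearson's r between the FT copies was 0.989, and Spearman's rho was 0.65. Flower was the highest and silique the next highest tissue of both. Bra004928 and Bra000393 had an r of 0.842, whereas r with Bra039324 was 0.222 for Bra004928 and 0.0408 for Bra000393. Between families, r with FT copies was 0.565 to 0.720 for Bra004928 and Bra000393, and -0.42 to -0.51 for Bra039324. These are descriptions over 6 points.

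The genes most like each copy over the 6 tissues were then named by identifier alone, because no annotation used here pairs them with names. Bra022475 was expressed in 1 tissue and was left out. For Bra004117 they were Bra008466 (r = 0.9997; 72.5 FPKM in flower), Bra026450 (0.9996; 70.9) and Bra013637 (0.999; 14.0), all far lower outside flower, and 49 of 33081 genes had an r above 0.99. Its own paralog Bra022475 (r = 0.989) ranked 56th, with 0.166% of genes at a higher r. For Bra004928 they were Bra040043 (0.992), Bra011481 (0.9903) and Bra010082 (0.988), each under 3 FPKM in every sample. For Bra000393 they were Bra023667 (0.992), Bra006276 (0.991) and Bra009350 (0.989), which kept at least 5.64 FPKM in every sample, so the likeness is of shape and not of level. For Bra039324 they were Bra005924 (0.998), Bra034678 (0.995) and Bra010653 (0.995), higher in every root, leaf and stem sample than in flower, silique and callus.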

How the data were processed

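The authors deposited FPKM per gene and sample with 95% bounds. Per the study's methods, trimmed reads were aligned by TopHat, and Cufflinks took FPKM from those with a unique position. The submitters' processing notes name TopHat 1.0.13, whereas the study's methods name a later version. Which run made the deposited values is not stated. Reads shared by near-identical copies may be lost, so copy levels are uncertain to that extent. In its own check of duplicated genes, the study reported that reads with several positions affected very few of them. Whether the members were among those was not checked here. The table holds no counts.

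Fragments were derived by dividing FPKM by the gap between the upper bound and FPKM, squaring this and multiplying by 4. Ratio intervals were exact conditional binomial and share intervals Clopper-Pearson, with 4 fragment numbers ending in 0.5 rounded down. Leaf and root were compared with limma 3.58.1 (R 4.3.3; lmFit, eBayes with trend) on log2(FPKM + 1) over genes with at least 1 FPKM in 2 of 4 samples; this scale understates changes of low genes. Copies were compared over 6 tissues by exact sign-flip permutation. Calculations were tested on simulated data. The software was Python 3.11.15 (scipy 1.17.1, pandas 2.3.3, numpy 2.4.6, matplotlib 3.10.9).

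Named genes are the 5 members, the 3 genes of highest Pearson r to each member expressed in at least 2 tissues, and the nearest gene on each side. Members and lists were chosen with earlier results of these data known. The RefSeq gene table matched 1 identifier and 0 members, so other flowering genes, tissue markers and sequences were not analysed here. Alternatives covered pseudocount, filter, scaling, pairing, sample set and leaving out samples.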

Additional observations from a re-analysis of the deposited data

How the results depend on the processing

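Of 166 alternative values for 29 results, 145 kept their direction and side of the threshold or stayed within an allowed spread. That spread was counting error for T, ratios and shares, and a fixed factor for counts of genes or samples. Part of this was fixed in advance. Leaving out a leaf or root sample cannot change the FT ratios of flower to silique. The copy tests could hardly pass the threshold over 4 pairs. The 145 is thus no measure of how stable the results are. Leaving out 1 sample gave 2254 to 3838 genes higher in leaf (4204 in full) and 3649 to 9175 higher in root (8905 in full), with the lone sample assumed to vary like the other tissue. Bra039324 then ranged from -0.019 (without root 2, the reverse of 0.12) to 0.26. The ratio of flower to root for Bra004928 ranged from 0.994 to 2.27, and Bra000393 was not tested without a root sample, since it no longer passed the filter.

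Root and leaf share sample numbers, and sample 2 minus sample 1 correlated between them with r = 0.640 over 25725 genes, but no source says that a number marks a batch. With the replicate number as a block, 5718 genes were higher in leaf and 14109 in root, and Bra004928 (-1.06) had an adjusted p of 0.000357 by limma. Over the alternatives that keep every sample, that p ran from 0.000357 to 0.156 by limma, the latter with upper-quartile scaling. The block changed no other call of a member.

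On log2(FPKM + 1), T was 0.929 (Bra022475), 0.921 (Bra004117), 0.587 (Bra004928), 0.770 (Bra000393) and 0.512 (Bra039324). Over 8 samples, T was 0.687 for Bra004928 and 0.516 for Bra039324. Counting any FPKM above 0, Bra022475 was present in 3 samples, Bra004117 in 4 and Bra000393 in 5. Depth limits the low values: with 0 to 7 fragments a copy, the copies of a family could not be ranked within silique or within callus, and 4 tissues have no replicate.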

Other observations

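No gene of the table overlapped a member by its annotated position. Transcripts that the table does not hold, and untranslated regions outside the gene models, were not checked for overlap. Of the 10 nearest genes on the scaffolds, named by identifier alone, Bra000392 shared its highest tissue with the member beside it: it lies 1609 bases before the SOC1 homologue Bra000393, and both were highest in flower (0.696 FPKM for Bra000392, r = 0.398). The others had their highest value in another tissue, as in these examples. Bra022474, 7692 bases before the FT homologue Bra022475, had 122 FPKM in callus and 0 in flower, where Bra022475 was highest. Bra004927, 2244 bases before the SOC1 homologue Bra004928, had 13.5 FPKM in silique, 8.23 in flower and 0 in root. Bra039325, 1121 bases after the SOC1 homologue Bra039324, was highest in stem (49.7 FPKM) and had 20.8 in flower, where Bra039324 had 1.02. Over 6 tissues, Pearson's r of members with the 10 neighbours lay between -0.40 (Bra022474) and 0.46 (Bra004118). These values were below the r of 0.989 between the FT copies and 0.842 between Bra004928 and Bra000393. The SOC1 pairs with Bra039324 lay within that range, at 0.222 (Bra004928) and 0.0408 (Bra000393). The neighbours of Bra039324 had an r with it of 0.242 (Bra039323) and 0.268 (Bra039325).

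The number of fragments per FPKM in a library was the same for both FT copies (6.86 in flower) and the same for all 3 SOC1 copies (8.34 in flower), so levels of copies within a family rest on an equal counted length. The annotated spans were 2491 and 2424 bases for the FT copies Bra022475 and Bra004117, and 2443, 2428 and 2994 bases for the SOC1 copies Bra004928, Bra000393 and Bra039324. The summed FT signal in flower (15.9 FPKM) was close to the summed SOC1 signal there (14.3 FPKM), while in leaf the FT sum was 0 and the SOC1 sum 9.61 (leaf 1) and 11.98 (leaf 2).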
